A study of Mus musculus with 3 samples.

Results

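A set of 10 genes that act in meiotic recombination, from the making of DNA breaks to the crossover, was followed through germ cells of the mouse testis: Prdm9 and Spo11, which place and cut the breaks, Dmc1, Psmc3ip, Mnd1 and Meiob, which act on the broken ends and in strand exchange, and Msh4, Msh5, Hfm1 and Mlh3, which act on the joined molecules and the crossover. They were taken by symbol, and all 10 were among the 22843 genes measured. The libraries came from testes of ICR mice injected on postnatal day 21 with an AAV9 vector that carried a red fluorescent protein with a short hairpin. One library (shCtrl) carried a control hairpin, while shRNA1 and shRNA2 carried hairpins against Gm4665, a long non-coding RNA whose part in spermatogenesis was the question of the study. All groups thus share the vector, the injection and a sort for fluorescent cells after somatic cells were taken away. Each group was 1 library described as cells of 3 mice, the cells carry no label of the mouse, with the age at collection not given in the sources used here. With 1 library in a group no test between groups is possible, so levels are given with intervals that cover counting error only.

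Meiotic recombination begins when SPO11, a topoisomerase-like enzyme, cuts the DNA at sites that PRDM9 has marked by methylating histone H3. The ends are trimmed to single strands, on which the recombinase DMC1 assembles and searches the homologous chromosome, helped by the HOP2-MND1 pair (HOP2 is the product of Psmc3ip) and by MEIOB, a single-strand binding protein related to RPA. The MSH4-MSH5 pair and the helicase HFM1 then stabilise joined molecules, and MLH3 acts where some of them become crossovers. In the testis the breaks are made in leptotene, strand exchange runs through zygotene, and crossovers are completed in pachytene.

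The table held 5023 cells, 1418 of shCtrl, 1732 of shRNA1 and 1873 of shRNA2, with median depths of 19366, 14667.5 and 16518 UMIs (unique molecular identifiers, 1 per captured molecule) a cell. Cells were clustered without the 10 genes and without 50 other recombination genes, and classes were named from marker genes: spermatogonia (45, 129 and 144 cells in shCtrl, shRNA1 and shRNA2), leptotene to zygotene spermatocytes (85, 73 and 216), pachytene to diplotene spermatocytes (87, 196 and 247), round spermatids (432, 507 and 464), and elongating and condensing spermatids (577, 631 and 468). The names stand for cells that resemble each class. Clusters of macrophages, antibody-secreting cells and B-cell genes, called non-germ here (19, 92 and 183 cells), were set apart, as were a cluster with both Sertoli and spermatid genes (162, 80 and 116 cells) and one led by stromal genes with markers of spermatogonia (11, 24 and 35 cells). The non-germ cells are used as a guide to what free RNA in the droplets can give, but RNA of their own is not told apart from it. Levels are in CPM (UMIs of a gene per 1000000 UMIs of the cells summed). The 13 markers of elongating and condensing spermatids summed to between 19705 and 30920 CPM in them, against 94115 to 136578 CPM over all cells. Gm4665 itself stood at 311 CPM in shCtrl, 52.8 CPM in shRNA1 and 79.1 CPM in shRNA2.

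RefSeq promoter windows of GRCm38.p6 were found for 8 of the 10 genes, all but Spo11 and Meiob, and the 250 bases before each start were searched on both strands for 5 motifs. CNCCTCAG, the motif of STRA8 and its partner MEIOSIN, factors that switch on meiotic genes, stood in those of Prdm9, Msh5 and Hfm1, while 6.42% of 32851 mouse promoter windows of that length held it. The E2F motif TTTGGCGC stood in none of the 8 and in 0.417% of all windows, and the CRE motif TGACGTCA in none and in 1.55%. TGACG, which lies within the CRE motif, stood in Hfm1 and Msh5 and in 17.8% of all windows. The MYB motif AACNG stood in Mnd1, Msh4, Psmc3ip, Mlh3, Prdm9 and Msh5 and in 74.2% of all windows. The sequences below are from the C57BL/6J reference, not from the ICR mice, and are written 5′ to 3′ on the gene's strand, which is the minus strand for all 4. Capitals mark the match, which lies on the gene's strand in Prdm9 and on the opposite strand in Hfm1 and Msh5. Dmc1, which peaked in the same cells as Prdm9, is shown as a window without a match.
Prdm9, chr17:15564355-15564474: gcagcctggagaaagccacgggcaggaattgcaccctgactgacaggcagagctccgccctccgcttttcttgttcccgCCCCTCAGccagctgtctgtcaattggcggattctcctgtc
Hfm1, chr5:106925891-106926010: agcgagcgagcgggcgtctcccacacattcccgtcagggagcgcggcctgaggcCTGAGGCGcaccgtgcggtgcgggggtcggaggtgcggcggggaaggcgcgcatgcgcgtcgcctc
Msh5, chr17:35046686-35046715: gatcgtcgcggCTGAGGTGacggaaaaggc
Dmc1, chr15:79605110-79605229: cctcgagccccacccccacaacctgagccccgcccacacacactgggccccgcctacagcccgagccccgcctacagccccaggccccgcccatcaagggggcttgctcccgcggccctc
For Prdm9, Hfm1 and Dmc1 these are the 120 bases before the RefSeq start, and for Msh5 the 30 bases around the match. The Hfm1 and Msh5 stretches also lie inside the GENCODE bounds of these genes, which start further upstream than RefSeq, and 16 of the 30 Msh5 bases are in an exon of Msh5 there. The match began 41 bases before the start in Prdm9, 66 in Hfm1 and 82 in Msh5. A match is a description of these letters and shows no binding, and a second Prdm9 window that starts within the gene held none.

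A finer clustering (Leiden resolution 1.2) split the start of meiosis into 5 steps, described here from the first to the last along the order of the cells. They were spermatogonia (261 cells), a cluster led by Stra8, Prss50 and Prdm9 (57 cells), a leptotene to zygotene cluster led by Meiob and Sycp3 among others (243 cells), a later leptotene to zygotene cluster led by Piwil1 among others (131 cells), and the earliest pachytene to diplotene cluster (126 cells). The Stra8 cluster had all 12 leptotene to zygotene markers raised, but the coarser clustering joined it to the spermatogonia. It held 19, 21 and 17 cells of shCtrl, shRNA1 and shRNA2.

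Of the 2 members that act in break formation, Prdm9 (chr17:15543079-15564354, minus strand, GENCODE vM21 on mm10, as for all gene positions) was the more sharply bounded. Its level was 11.2 CPM in spermatogonia (95% Poisson interval 7.97 to 15.2), 121 CPM in the Stra8 cluster (95.5 to 152) and 0.987 CPM in the Meiob-led cluster (0.321 to 2.30). In the Stra8 cluster it was 123 CPM in shCtrl, 159 in shRNA1 and 80.5 in shRNA2, and 64.9% of the cells held a UMI. Prdm9 RNA was thus close to absent in the Meiob-led cluster, where Meiob and Mnd1 were highest. Its mean over libraries was 33.8 CPM in spermatogonia of the coarser clustering, and 0.242 to 0.850 CPM in the other 4 germ classes, beside 0.435 CPM in non-germ cells.

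Spo11 (chr2:172977700-172993576, plus strand), the gene of the break-making enzyme, followed another course. Its level was 5.58 CPM in spermatogonia, 11.3 CPM in the Stra8 cluster (4.56 to 23.3), 44.8 CPM in the Meiob-led cluster (39.2 to 51.0), 49.97 CPM in the later leptotene to zygotene cluster (44.3 to 56.2) and 51.7 CPM in the earliest pachytene cluster (46.2 to 57.7). The last 3 of these intervals overlap, so the level did not differ beyond counting error from the Meiob-led cluster up to the earliest pachytene cluster. A later pachytene to diplotene cluster of the coarser clustering (342 cells) was at 25.6 CPM (22.8 to 28.6). By class the mean over libraries was 47.2 CPM in leptotene to zygotene and 36.3 CPM in pachytene to diplotene spermatocytes, then 8.31 CPM in round and 2.99 CPM in elongating and condensing spermatids, beside 1.38 CPM in non-germ cells. Spo11 UMIs were found in 60.6% of pachytene to diplotene cells and 59.6% of leptotene to zygotene cells, against 3.06% of non-germ cells, with median depths of 36318, 22654 and 11751 UMIs. With each cell thinned to 10000 UMIs the shares were 30.7%, 35.1% and 2.44%. The pachytene share is thus of the same order as the leptotene to zygotene share at equal depth.

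**Figure D1:**
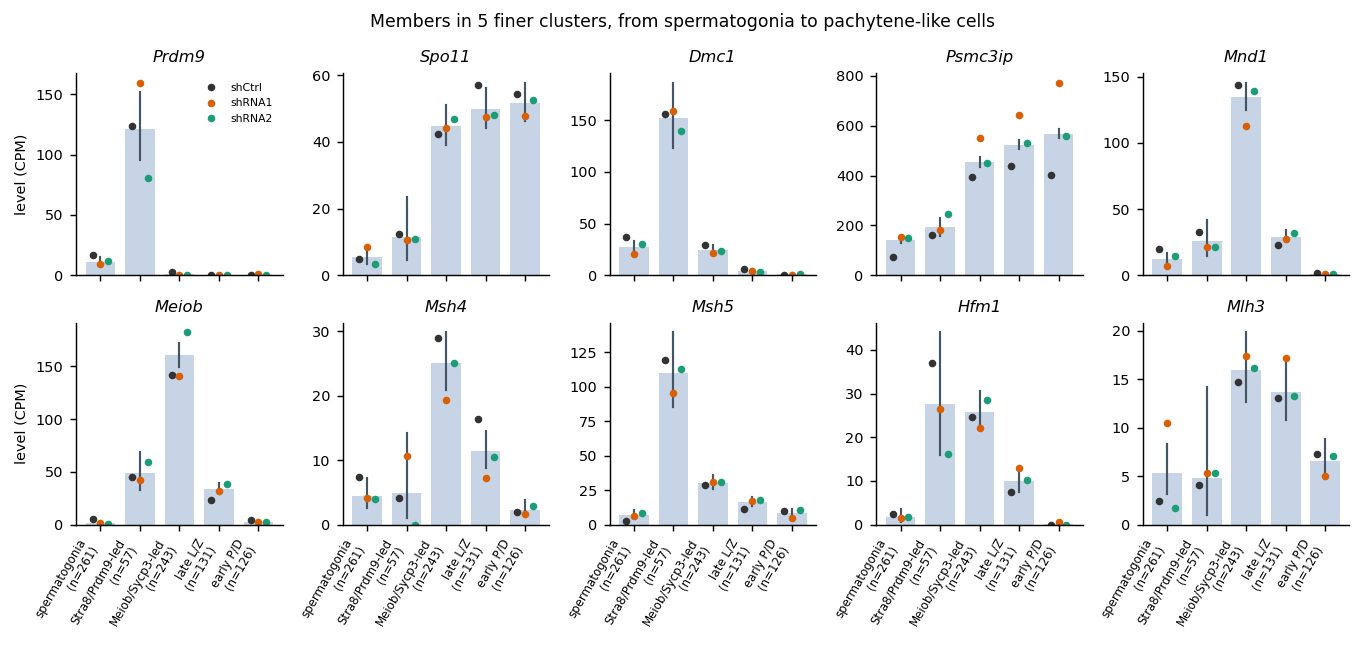
Level of each gene (CPM, linear axes that differ between panels) in 5 finer clusters from spermatogonia to the earliest pachytene to diplotene cluster (L/Z, leptotene to zygotene; P/D, pachytene to diplotene). Bars are all libraries summed, lines their 95% Poisson intervals and points the 3 libraries; Prdm9, Dmc1 and Msh5 are highest in the 57 cells of the Stra8 cluster, Mnd1 and Meiob in the next cluster, and Spo11 and Psmc3ip stay high to the last.

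Among the genes of strand exchange, the recombinase gene Dmc1 (chr15:79561497-79605109, minus strand) shared the step of Prdm9 but had a longer tail. It was at 27.3 CPM in spermatogonia, 152 CPM in the Stra8 cluster (123 to 186), 24.9 CPM in the Meiob-led cluster (20.7 to 29.6), 3.97 CPM in the later leptotene to zygotene cluster and 0.958 CPM in the earliest pachytene cluster. In the Stra8 cluster the libraries stood at 156, 159 and 140 CPM in shCtrl, shRNA1 and shRNA2, and 77.2% of the cells held a UMI. Dmc1 RNA was thus highest before, and lower during, the step at which Mnd1 and Meiob were highest.

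Meiob (chr17:24804289-24839788, plus strand), the RPA-like gene, and Mnd1 (chr3:84087933-84155786, minus strand), the other gene of the HOP2-MND1 pair, both peaked in the Meiob-led cluster. Meiob went from 1.39 CPM in spermatogonia and 48.6 CPM in the Stra8 cluster (32.8 to 69.3) to 161 CPM (150 to 172), then to 34.1 CPM (29.4 to 39.3) and 2.87 CPM in the next 2 clusters. Mnd1 went from 12.3 and 25.9 CPM to 135 CPM (125 to 145), then to 29.2 CPM (24.9 to 34.1) and 1.28 CPM. In the Meiob-led cluster Meiob stood at 142, 141 and 183 CPM and Mnd1 at 143, 113 and 139 CPM in shCtrl, shRNA1 and shRNA2. Of 345 leptotene to zygotene cells thinned to 10000 UMIs, 212 held Meiob, 183 held Mnd1 and 139 held both. Mnd1 was one of the genes with a near copy: the annotated pseudogene Mnd1-ps matches 595 of the last 600 bases at 98.5% identity, so reads from it and from Mnd1 cannot be told apart here. Mnd1 also stood at 15.8 CPM (11.4 to 21.3) in the antibody-secreting cluster and at 47.5 CPM (36.0 to 61.6) in the cluster led by stromal genes.

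Psmc3ip (chr11:101091823-101095436, minus strand), the gene of HOP2, did not follow its partner. It was at 143 CPM in spermatogonia, 193 CPM in the Stra8 cluster (160 to 231), 454 CPM in the Meiob-led cluster (436 to 473), 524 CPM in the later leptotene to zygotene cluster (505 to 544) and 567 CPM in the earliest pachytene cluster (549 to 586). These are all libraries summed. The Meiob-led and the earliest pachytene cluster stood at 396 and 403 CPM in shCtrl, 549 and 772 in shRNA1 and 450 and 557 in shRNA2. The further rise to pachytene is thus mainly that of shRNA1 and shRNA2. By class its mean over libraries was 141 CPM in spermatogonia, 499 CPM in leptotene to zygotene and 552 CPM in pachytene to diplotene spermatocytes, 363 CPM in round spermatids and 140 CPM in elongating and condensing spermatids. Non-germ cells held 102 CPM, and 62.0% of them held a UMI at 10000 UMIs a cell, beside 92.7% of round spermatids and 69.7% of elongating and condensing spermatids. The level in spermatogonia and in the last spermatids was thus near that of the non-germ cells, and the round spermatid level was above it. The UMI ratio of Psmc3ip to Mnd1 was 4.51, 7.37 and 6.74 in leptotene to zygotene spermatocytes of shCtrl, shRNA1 and shRNA2, and 117, 363 and 272 in pachytene to diplotene spermatocytes. Ratios between genes depend on how each is captured, so only this shift between classes is read.

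Of the crossover genes, Msh5 (chr17:35028605-35046745, minus strand) came first. It was at 6.97 CPM in spermatogonia, 110 CPM in the Stra8 cluster (85.5 to 140), 30.4 CPM in the Meiob-led cluster (25.8 to 35.6), 16.4 CPM in the later leptotene to zygotene cluster and 8.62 CPM in the earliest pachytene cluster (6.48 to 11.3). Its libraries stood at 119, 95.6 and 113 CPM in the Stra8 cluster. Msh4 (chr3:153857149-153906138, minus strand), whose protein pairs with that of Msh5, was at 4.86 CPM in the Stra8 cluster from 3 UMIs (1.001 to 14.2), 25.1 CPM in the Meiob-led cluster (20.9 to 29.8), 11.4 CPM in the later one and 2.24 CPM in the earliest pachytene cluster. The intervals of the Stra8 and Meiob-led clusters do not overlap for either gene and the order of the 2 clusters is opposite, so these partner genes were not highest at the same step.

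Hfm1 (chr5:106840192-106926321, minus strand), the helicase gene, was at 27.5 CPM in the Stra8 cluster (16.0 to 44.1) and 25.9 CPM in the Meiob-led cluster (21.6 to 30.7), which do not differ beyond counting error. It then stood at 9.92 CPM and, from 1 UMI, 0.160 CPM (up to 0.889) in the next 2 clusters. Mlh3 (chr12:85234520-85270599, minus strand), a crossover gene, was at 4.86 CPM in the Stra8 cluster from 3 UMIs, 16.0 CPM in the Meiob-led cluster (12.7 to 19.9), 13.7 CPM in the later one (10.8 to 17.2) and 6.55 CPM in the earliest pachytene cluster (4.70 to 8.88). Between zygotene and pachytene, then, Hfm1 left almost no RNA while Mlh3 and Msh5 kept a measurable level.

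Msh4 had a second, late maximum. Its mean over libraries was 18.1 CPM in leptotene to zygotene spermatocytes, 2.84 CPM in pachytene to diplotene spermatocytes, 17.4 CPM in round spermatids and 8.78 CPM in elongating and condensing spermatids, beside 1.88 CPM in non-germ cells. The leptotene to zygotene and the round spermatid level did not differ beyond the spread of the libraries: shCtrl stood at 23.5 and 23.7 CPM, shRNA1 at 14.6 and 14.6 CPM and shRNA2 at 16.2 and 14.0 CPM. Among round spermatids thinned to 10000 UMIs, 17.01% held Msh4, against 1.46% of non-germ cells and 2.56% of pachytene to diplotene cells. In the same round cells 41 of 1029 held Msh5 and 175 held Msh4, and the UMI ratio of Msh4 to Msh5 was 9.52, 3.85 and 2.51 in the 3 libraries, against 1.10, 0.565 and 0.703 in leptotene to zygotene spermatocytes. The round spermatid RNA was mostly in 1 of the 4 round clusters, which stood at 33.2 CPM (30.3 to 36.2) while the others stood at 3.40, 8.96 and 13.9 CPM.

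Placing all 4301 germ cells in 1 order by diffusion pseudotime, again without the 10 genes, gave the same sequence in bins of 100 cells. Prdm9, Dmc1 and Msh5 were highest in bin 3 (61.8, 83.9 and 48.6 CPM), in which the marker Stra8 also peaked. Meiob, Mnd1 and Hfm1 were highest in bin 4 (180, 187 and 30.6 CPM), where the synapsis gene Sycp3 also peaked. Msh4 was highest in bin 5 (25.8 CPM), Spo11 and Mlh3 in bin 6 (57.6 and 17.9 CPM), and Psmc3ip in bin 9 (621 CPM). A median position was also taken for each gene, with cells weighted by its share of their UMIs and libraries of unequal cell number weighted alike. It lay at 6.70% of the order for Prdm9, 7.14% for Dmc1, 10.3% for Meiob, 10.4% for Hfm1, 10.6% for Mnd1, 12.7% for Msh5, 13.3% for Mlh3, 21.6% for Spo11, 33.4% for Psmc3ip and 60.5% for Msh4. By this measure Hfm1 lay before Msh5, although Msh5 had the earlier peak. In each library on its own Prdm9 and Dmc1 came first. They lay at 6.60% and 7.30% in shCtrl, 6.88% and 7.23% in shRNA1, and 6.18% and 6.77% in shRNA2. Later positions differed more between shCtrl, shRNA1 and shRNA2. Spo11 lay at 17.5%, 26.1% and 17.9%, Psmc3ip at 45.2%, 34.5% and 29.4%, and Msh4 at 68.3%, 61.5% and 43.5%. Of the 10 places in the order, 5 moved in shRNA2 alone, 2 in shCtrl alone and 2 in shRNA1 alone. With genes placed by their mean class instead, 5 moved. By its highest bin Spo11 RNA came after Dmc1, Meiob and Mnd1, although its protein cuts the breaks on which theirs act. The Spo11 level did not differ beyond counting error from the Meiob-led to the earliest pachytene cluster, so this bin is the top of a plateau. Counts are per gene and do not separate the 5 annotated Spo11 transcripts, so the order of a single transcript is not known. Round and elongating cells were not cleanly ordered by this method, so positions past meiosis are rough.

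**Figure D2:**
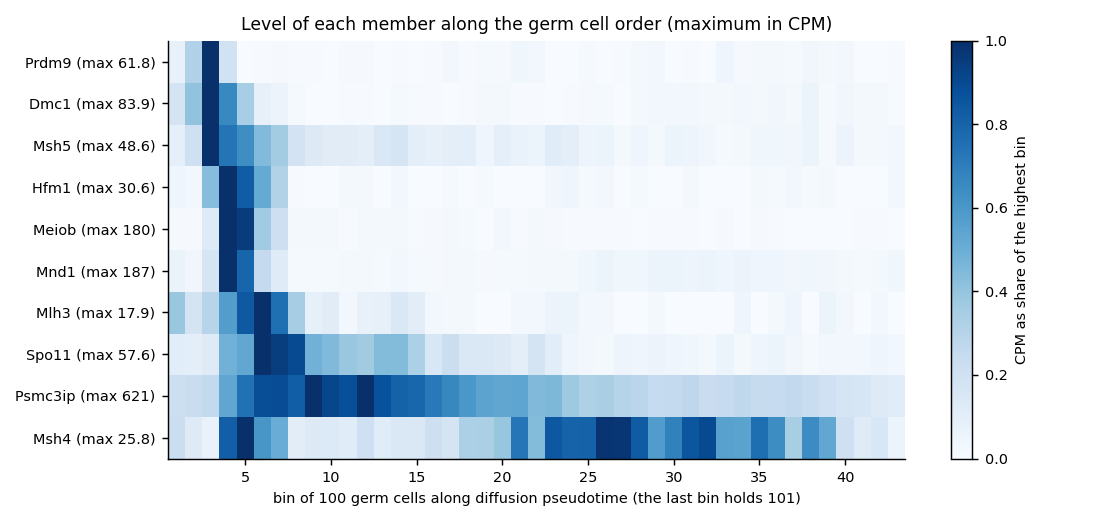
Level of each gene in 43 bins along the order of 4301 germ cells, as a share of its highest bin (colour), with that highest level in CPM beside the name. Prdm9, Dmc1 and Msh5 peak in bin 3, Meiob, Mnd1 and Hfm1 in bin 4, Spo11 and Mlh3 in bin 6 and Psmc3ip in bin 9, and Msh4 has a second band from about bin 21.

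The fixed lists of other recombination genes were placed by class in the same way. Of 11 other genes of break formation, 8 had their highest class in spermatogonia, which here include the Stra8 cluster, 2 in leptotene to zygotene and 1 in pachytene to diplotene spermatocytes. Of 22 other genes of end processing and strand exchange these numbers were 12, 7 and 3, and of 17 other genes of crossover designation and resolution 9, 3 and 5. Of all 10926 genes with a mean over libraries of at least 10 CPM in 1 or more germ classes, 38.6% were highest in spermatogonia, 13.1% in leptotene to zygotene and 22.8% in pachytene to diplotene spermatocytes. The listed genes were counted without this limit on level, and some of them stayed under it. Among the 10 genes themselves, 3 were highest in spermatogonia by the mean over libraries (Prdm9, Dmc1, Msh5), 6 in leptotene to zygotene spermatocytes and 1, Psmc3ip, in pachytene to diplotene spermatocytes. The place of Msh5 rests on the 45 spermatogonia of shCtrl, at 46.1 CPM against 21.4 CPM in leptotene to zygotene spermatocytes. In shRNA1 and shRNA2 it was higher in leptotene to zygotene spermatocytes, at 25.8 against 16.6 CPM and 23.1 against 18.6 CPM. The place of Psmc3ip rests on shRNA1 and shRNA2. Its shCtrl level was 413 CPM in leptotene to zygotene and 377 CPM in pachytene to diplotene spermatocytes. The place of Msh4 among the 6 rests on shRNA2, at 16.2 CPM against 14.0 CPM in round spermatids. In shCtrl and shRNA1 Msh4 was slightly higher in round spermatids, at 23.7 against 23.5 CPM and 14.61 against 14.56 CPM. The most abundant gene of each list, in the class where the list's summed level is highest, was Hells (583 CPM in spermatogonia), a chromatin remodeller that works with PRDM9, Swi5 (1199 CPM in leptotene to zygotene spermatocytes), of a complex that aids strand exchange, and Cntd1 (169 CPM there), needed to turn intermediates into crossovers.

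The genes most like each member were taken from the correlation of log2 levels over 19 sums of a class and library, among 12419 genes. Dmc1 was most like Zcwpw1, a reader of the histone marks that PRDM9 lays down (r = 0.98), and Meiob most like Mcmdc2, a meiotic gene of strand exchange (r = 0.98). Prdm9 was most like Dab1 (r = 0.95), Hfm1 most like Dppa4 (r = 0.99), Spo11 most like Prok2 (r = 0.98), Psmc3ip most like Dcdc2a (r = 0.98) and Msh4 most like Ndfip2 (r = 0.93). Mnd1 had the lowest best match, Perp at 0.91. Msh5, with Rhbdd2, and Mlh3, with Frs3, were at 0.96. The sums share libraries and classes, so these values describe the pattern only. The 45-cell spermatogonia of shCtrl did not enter.

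The next question is how the 10 genes stood after knockdown of Gm4665. Over all cells 4 of the 10 reached the level for comparison (a mean of at least 10 CPM and at least 30 UMIs), and none was at least 2-fold higher or lower with both hairpins. Of the 7068 genes compared, 1.23% were at least 2-fold higher with both and 0.495% at least 2-fold lower, so a count of 0 of 4 says little about the members. Both hairpins share the 1 control library. Psmc3ip stood at 187 CPM in shCtrl, 399 in shRNA1 and 316 in shRNA2, log2 differences of 1.09 and 0.76. Spo11 stood at 10.1, 13.9 and 16.0 CPM (log2 0.42 and 0.61), Msh4 at 14.2, 9.31 and 8.98 CPM (log2 -0.56 and -0.60), and Mnd1 at 14.6, 8.37 and 14.0 CPM (log2 -0.73 and -0.05). The median of the 4 was -0.07 and 0.28 with the 2 hairpins, beside 0.23 and 0.25 over all genes compared.

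The other 6 members were at 1.36 to 14.6 CPM over all cells and were under the level for comparison. Prdm9 stood at 1.58, 1.90 and 1.37 CPM in shCtrl, shRNA1 and shRNA2, Dmc1 at 3.86, 3.44 and 4.41 CPM, and Meiob at 7.99, 6.03 and 14.6 CPM. Meiob was lower in shRNA1 and higher in shRNA2 than in shCtrl, and the number of leptotene to zygotene cells went the same way, at 85, 73 and 216 cells. Msh5, at 4.38, 4.46 and 7.95 CPM, Hfm1, at 1.78, 1.36 and 2.67 CPM, and Mlh3, at 1.68, 2.32 and 2.96 CPM, were also highest in shRNA2. Levels over all cells mix the level in a cell with the share of cells of each class, so the values within classes are the ones to read.

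In leptotene to zygotene spermatocytes 9 of the 10 were compared, all but Prdm9, and none was at least 2-fold higher with both hairpins (0.237% of 7587 genes were) or at least 2-fold lower (0.764%). Meiob stood at 90.9, 98.5 and 95.1 CPM in shCtrl, shRNA1 and shRNA2, Spo11 at 48.8, 45.4 and 47.6 CPM, and Hfm1 at 17.2, 18.5 and 17.4 CPM. For these 3 genes the libraries lay within their counting intervals of each other: the ratio to shCtrl had a 95% interval of 0.890 to 1.32 and 0.902 to 1.22 for Meiob with shRNA1 and shRNA2, 0.698 to 1.23 and 0.793 to 1.203 for Spo11, and 0.670 to 1.71 and 0.715 to 1.45 for Hfm1. Msh5, at 21.4, 25.8 and 23.1 CPM, and Mlh3, at 14.0, 17.4 and 14.4 CPM, had intervals that include equality too. The other 4 genes had at least 1 interval apart from equality, as did 49.2% of all 7587 genes. Dmc1 stood at 18.9, 14.6 and 11.4 CPM (ratio intervals 0.462 to 1.25 and 0.414 to 0.876), Mnd1 at 91.6, 79.5 and 74.0 CPM (0.703 to 1.07 and 0.692 to 0.946), and Msh4 at 23.5, 14.6 and 16.2 CPM (0.378 to 0.988 and 0.501 to 0.958). Psmc3ip stood at 413, 586 and 499 CPM (1.304 to 1.54 and 1.13 to 1.29). The medians of the 9 genes were 0.10 and 0.02, beside 0.06 and 0.08 over all genes compared.

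The makeup of this class differed between libraries. The later of the 2 finer clusters, where Dmc1 and Mnd1 are low, held 92 cells of shRNA2, against 19 and 20 in shCtrl and shRNA1. Within the Meiob-led cluster Dmc1 stood at 28.9, 21.1 and 23.8 CPM, Mnd1 at 143, 113 and 139 CPM, Msh4 at 28.9, 19.3 and 25.1 CPM and Psmc3ip at 396, 549 and 450 CPM. There shRNA2 was nearer to shCtrl for Dmc1, Mnd1 and Msh4 than in the class as a whole. All of them were still lower than in shCtrl with each hairpin, and Psmc3ip was higher. In the class as a whole the 13 markers of elongating and condensing spermatids summed to 70228, 44209 and 40542 CPM in shCtrl, shRNA1 and shRNA2. In pachytene to diplotene spermatocytes they summed to 22883, 16835 and 18871 CPM. Msh4 is also a spermatid RNA, at 23.7, 14.6 and 14.0 CPM in round spermatids. The parts of the makeup and of spermatid RNA in this class were not tested.

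**Figure D3:**
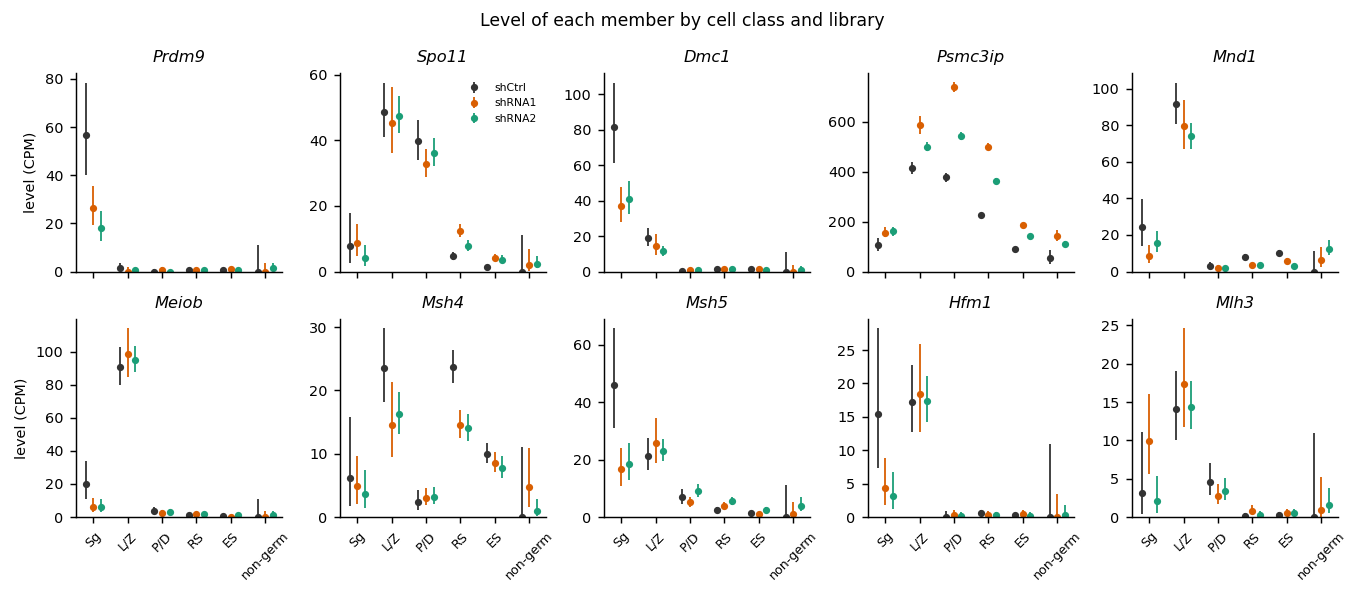
Level of each gene (CPM, linear axes that differ between panels) in spermatogonia (Sg), leptotene to zygotene (L/Z) and pachytene to diplotene (P/D) spermatocytes, round (RS) and elongating and condensing (ES) spermatids and non-germ cells. Points are the 3 libraries and lines their 95% Poisson intervals; the libraries are close for most genes in L/Z, Psmc3ip is lowest in shCtrl in every class, and Prdm9, Dmc1 and Msh5 are highest in shCtrl in Sg, of which shCtrl has 45 cells.

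In spermatogonia, where shCtrl had 45 cells and no comparison was made for that reason, the early genes stood higher in shCtrl than in the other libraries. Prdm9 stood at 56.9, 26.5 and 18.1 CPM in shCtrl, shRNA1 and shRNA2, Dmc1 at 81.5, 37.0 and 40.9 CPM, Msh5 at 46.1, 16.6 and 18.6 CPM and Meiob at 19.99, 6.16 and 6.21 CPM. The finer clusters divide this class. The Stra8 cluster made up 19 cells in shCtrl and 21 and 17 in the others, while the spermatogonia before it numbered 26, 108 and 127. Within the Stra8 cluster Dmc1 was at 156, 159 and 140 CPM and Msh5 at 119, 95.6 and 113 CPM, and within the spermatogonia before it Dmc1 was at 36.8, 20.9 and 30.4 CPM and Prdm9 at 17.2, 9.07 and 11.5 CPM. Prdm9 in the Stra8 cluster was at 123, 159 and 80.5 CPM, and Meiob in the spermatogonia before it at 4.91, 1.39 and 0.573 CPM. Before the Stra8 cluster Prdm9, Dmc1 and Meiob were thus highest in shCtrl, but from 7, 15 and 2 UMIs in its 26 cells. Msh5 was lowest in shCtrl there, at 2.46, 6.28 and 8.60 CPM from 1, 9 and 15 UMIs. No difference between the libraries is read at these counts, and the part of the cell mix was not tested.

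Psmc3ip was higher with both hairpins in every class compared. In pachytene to diplotene spermatocytes it stood at 377 CPM in shCtrl, 738 in shRNA1 and 542 in shRNA2 (log2 0.97 and 0.52, ratio intervals 1.85 to 2.07 and 1.36 to 1.52). In round spermatids it stood at 225, 501 and 363 CPM (log2 1.15 and 0.69), and in elongating and condensing spermatids at 91.8, 186 and 141 CPM (log2 1.01 and 0.61). In none of them did both hairpins reach 2-fold. The shares of genes past that fold with both hairpins, first upward and then downward, were 0.147% and 0.176% of 6808 in pachytene to diplotene spermatocytes, 0.403% and 0.493% of 6698 in round spermatids, and 2.27% and 0.316% of 5065 in elongating and condensing spermatids. By the smaller of its 2 log2 differences, Psmc3ip was in place 127 of the 6808 genes in pachytene to diplotene spermatocytes and 154 of the 6698 in round spermatids, but 1117 of 7587 in leptotene to zygotene and 504 of 5065 in elongating and condensing spermatids.

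The same held over finer clusters. Of the 14 finer germ clusters with at least 20 cells in each library, Psmc3ip was higher than shCtrl with both hairpins in 14, with a ratio of 1.38 to 2.54 for shRNA1 and 1.08 to 2.68 for shRNA2, and shRNA1 was above shRNA2 in 13. These clusters share the same 3 libraries, and the share of all genes with such a count was not taken. In the earliest pachytene cluster Psmc3ip was at 403, 772 and 557 CPM. The cells that do not belong to the germ line showed the same order, at 53.7 CPM in shCtrl (18 UMIs), 142 in shRNA1 and 109 in shRNA2, as did the cluster of Sertoli and spermatid genes, at 71.4, 143 and 125 CPM. The part of free RNA in the spermatogonia and spermatids was not tested. When the clusters of round spermatids were weighted as in shCtrl, the log2 differences were 0.96 and 0.39 in place of 1.15 and 0.69.

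Its neighbours bear on how Psmc3ip is read. Its 3′ end overlaps the 3′ end of Mlx, on the opposite strand, over 385 bases (chr11:101091823-101092207), with the strand rule of the counting not given in the sources used here. Whether the counting told reads of the 2 genes apart there is thus not known. Mlx was at 1.96, 2.48 and 5.22 CPM over all cells and at 0.0646, 0.154 and 0.664 CPM in elongating and condensing spermatids, well under Psmc3ip in each library. Fam134c (now Retreg3) lies 885 bases upstream on the same strand. It was at 68.5, 40.5 and 42.7 CPM over all cells, log2 differences of -0.74 and -0.67. Over all cells Psmc3ip and Fam134c thus differed from shCtrl in opposite directions.

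Msh4 was lower with both hairpins over round spermatids, at 23.7 CPM in shCtrl, 14.6 in shRNA1 and 14.0 in shRNA2 (log2 -0.66 and -0.72, ratio intervals 0.511 to 0.745 and 0.489 to 0.714). Within the round cluster that holds most of its RNA it was at 35.4, 38.3 and 25.2 CPM, and this cluster made up 256 of 432 round spermatids in shCtrl, 163 of 507 in shRNA1 and 118 of 464 in shRNA2. With the round clusters weighted as in shCtrl the log2 differences were -0.04 and -0.23. In shRNA2 it was thus lower within that cluster too, and the part of the mix was not tested. Over the 14 finer clusters Msh4 was lower with both hairpins in 5, higher in 3 and split in 6.

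In round and in elongating and condensing spermatids Mnd1 was under the level for comparison. It stood at 7.69, 3.55 and 3.42 CPM in round spermatids (ratio intervals 0.316 to 0.666 and 0.304 to 0.642) and at 9.88, 6.02 and 2.75 CPM in elongating and condensing spermatids (0.458 to 0.805 and 0.180 to 0.416). It was lower than shCtrl with both hairpins in 11 of the 14 finer clusters, split in 3 and higher in 0. Some of these rest on few UMIs, such as 3, 2 and 3 in the earliest pachytene cluster. The clusters share the same 3 libraries, and the share of all genes with such a count was not taken. Non-germ cells held Mnd1 at 0, 6.54 and 12.4 CPM (0, 7 and 38 UMIs). The 0 of shCtrl comes from 19 cells, with an interval up to 11.0 CPM. Of these 45 UMIs 42 were in the antibody-secreting cluster, which had 3, 42 and 103 cells. The part of free RNA was not tested.

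**Figure D4:**
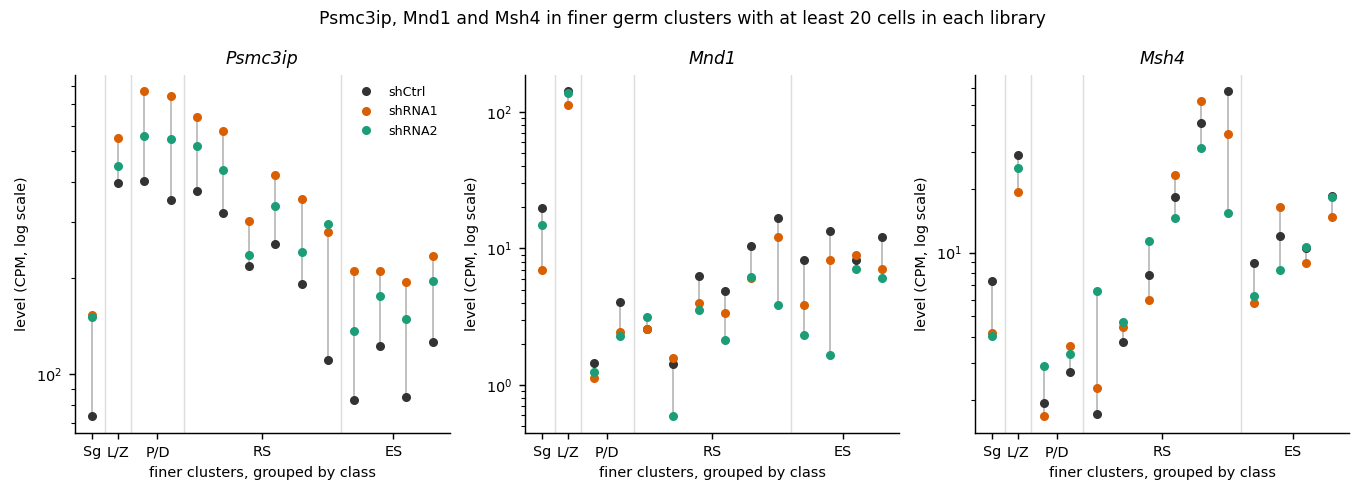
Level (CPM, log axis) of Psmc3ip, Mnd1 and Msh4 in the 14 finer germ clusters with at least 20 cells in each library, grouped by class (abbreviations as Sg, L/Z, P/D, RS and ES for spermatogonia, leptotene to zygotene, pachytene to diplotene, round, and elongating and condensing) and then by place in the order. Points are the 3 libraries, joined by a grey line. The lowest point is shCtrl for Psmc3ip in all 14 clusters, while shCtrl is above both hairpins for Mnd1 in 11 and in no fixed place for Msh4. All clusters share these libraries, and some Mnd1 points rest on few UMIs.

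Spo11 was lower with both hairpins in pachytene to diplotene spermatocytes, at 39.8, 32.9 and 36.2 CPM, with ratio intervals that include equality (0.676 to 1.01 and 0.749 to 1.11). In round spermatids it was at 4.75, 12.4 and 7.80 CPM (ratio intervals 1.93 to 3.56 and 1.19 to 2.29) and in elongating and condensing spermatids at 1.29, 4.09 and 3.60 CPM, under the level for comparison in both. The round cluster with the highest Spo11 held 33 of 432, 110 of 507 and 86 of 464 round cells and stood at 15.3, 20.8 and 14.3 CPM. This cluster was named round on a narrow margin over pachytene (marker score 0.55 against 0.21), with a median depth of 42151 UMIs. It also had the highest Psmc3ip of the round clusters, at 547 CPM. The round cluster with the lowest stood at 1.67, 3.45 and 1.90 CPM, and the part of the mix was not tested. Non-germ cells stood at 0, 1.87 and 2.28 CPM. Msh5 in round spermatids was at 2.49, 3.797 and 5.57 CPM. Prdm9, Dmc1, Meiob, Hfm1 and Mlh3 were at most 1.98 CPM in each library in round spermatids, and no difference between the libraries is read at that depth.

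Of the 50 other recombination genes, 21 were compared over all cells. With both hairpins 20 of them were higher than shCtrl, of any size, while 61% of all genes compared were, and 1 was at least 2-fold higher. Their medians were 0.37 and 0.57, beside 0.23 and 0.25 over all genes. Within leptotene to zygotene spermatocytes 32 were compared, 19 were higher and 9 lower with both (46.5% and 29.5% of all genes compared), none was at least 2-fold from shCtrl, and the medians were 0.16 and 0.18. Swi5 stood there at 1112, 1192 and 1292 CPM, Hsf2bp, whose protein brings BRCA2 to meiotic breaks, at 109, 128 and 120 CPM, and Ccnb1ip1, the crossover gene also called Hei10, at 36.5, 44.2 and 44.9 CPM. Cntd1, at 180, 161 and 165 CPM, and Rmi1, of the complex that takes joined molecules apart, at 37.5, 32.5 and 36.3 CPM, were lower with both, with ratio intervals that include equality. In pachytene to diplotene spermatocytes 22 were compared, of which 6 were higher and 8 lower with both, beside 35.5% and 36.9% of all genes compared. In round spermatids 14 of 15 were higher with both and 0 lower (54.6% and 31.1% of all genes), and in elongating and condensing spermatids 7 of 7 were higher and 0 lower (45% and 33.6% of all genes). The 12 markers of pachytene to diplotene spermatocytes, summed, were also higher with both hairpins in these cells. They summed to 1418, 2119 and 1894 CPM in round and 313, 575 and 610 CPM in elongating and condensing spermatids. Over all cells they summed to 1328, 1903 and 1958 CPM. The part of the cell mix was not tested.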

How the data were processed

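Droplet 3′ libraries of sorted testis cells were used, 1 library in each of 3 groups. Per the submitters' processing notes the reads were processed with Cell Ranger 1.3.1 on mm10 and with Seurat 2.0.0. The authors deposited natural log values (ln) of 1 plus a gene's UMIs per 10000 in the cell. Whole UMIs were recovered (100% of 20140203 non-zero values whole within 0.01) and summed, which replaces mean ln values as the unit. Columns were matched to the hairpins by the digit ending their name alone; if wrong, shRNA1 and shRNA2 change places. The libraries shared 5 to 7 cell barcodes in pairs. Annotation and strand of the counting: not given in the sources used here.

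Clustering used scanpy 1.11.5 (2000 variable genes, 30 components, 15 neighbours, Leiden 0.8, no batch correction). Classes were named from fixed marker lists, at least 3 markers raised 1.5-fold. A caller marked 8, 7 and 5 cells as doublets, under 1% of each library, too few to take as a working call, and they were kept. Of the round clusters 1, that with the highest Spo11 and Psmc3ip, was named on a narrow margin (marker score 0.55 against 0.21 for pachytene). Classes with at least 50 cells in each library were compared, on log2(CPM + 1), which understates folds of low genes. Poisson and Clopper-Pearson intervals are exact and cover counting error only. Shares of cells with a UMI are also given after thinning to 10000 UMIs, which left out 932 shallower cells. Named genes were the 10 members, the most abundant of the other recombination genes (up to 4 a list, not all printed), the closest gene by correlation and Gm4665; other names were given for a property of a member. Of 51 other recombination genes listed, 50 were matched. The fold steps were tested on simulated data. Members, lists and rules were chosen with earlier results of these data known. Alternatives covered scaling (TMM, median of ratios, without the 20 most abundant genes), cluster resolution, class mix, doublets, depth, filter, threshold and pseudocount. Promoters came from RefSeq (GRCm38.p6), positions and overlaps from GENCODE vM21, and near copies from blastn 2.17.0.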

Additional observations from a re-analysis of the deposited data

How the results depend on the processing

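No paired analysis was possible because each group has 1 library, and for the same reason no library could be left out. The count of members at least 2-fold from shCtrl with both hairpins over all cells stayed 0 in each direction under the 3 other scalings and with no filter on low values. At a threshold of 1.5-fold it was 1 higher, Psmc3ip, beside 11.4% of all genes compared. The scaling moved all genes: with TMM factors the median log2 difference of all genes was -0.04 and -0.08 in place of 0.23 and 0.25, and the genes past 2-fold upward and downward numbered 31 and 185 in place of 87 and 35. They numbered 30 and 206 with median-of-ratios factors, or 72 and 55 when the 20 most abundant genes were left out. Psmc3ip then stood at 0.82 and 0.42 with TMM factors, and at 0.81 and 0.35 with median-of-ratios factors. With germ classes weighted as in shCtrl, the shRNA2 difference over all cells turned to -0.036 for Mlh3 and -0.15 for Hfm1. At Leiden resolution 0.5 that of Mnd1 in leptotene to zygotene spermatocytes turned to 0.0098. The cause was not tested. Between 5 and 7 members were highest in leptotene to zygotene spermatocytes over resolutions and single libraries, against 6. Adding the cluster of stromal genes to the spermatogonia, chosen after seeing the data, left Prdm9 at 45.04, 21.1 and 14.1 CPM. Genes under 10 CPM are limited by depth.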
